A study of Mus musculus with 41 samples.

Results

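The genes described here are LOC624219, annotated on the array as similar to the hepatocellular carcinoma-associated gene TD26, and 3 further genes of plasma triglyceride handling, angiopoietin-like 4 (Angptl4), lipoprotein lipase (Lpl) and hepatic lipase (Lipc). They were found by matching the gene name of each spot on the mRNA arrays, which gave 4 genes with 6 probes among 27962 distinct names and 41174 probes. LOC624219 and Lpl each had 2 probes, which were kept apart. By its gene identifier, LOC624219 is Angptl8 in the RefSeq table used here, with Rifl and Gm6484 among its synonyms, so all 4 genes belong to 2 protein families, the angiopoietin-like proteins and the lipases.

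Female mice of the strain C57BL/6BomTac, labelled C57BL/6, time-mated but not pregnant and of a labelled age equivalent to gestation day 4, breathed air holding surface-coated nanosized titanium dioxide (nanoTiO2) at a labelled 40 mg/m3 for 1 h a day on 11 consecutive days, and controls breathed filtered air. Lung and liver were taken 5 days after the last exposure. Each array carried RNA of 1 mouse in the Cy5 channel and a universal reference, pooled RNA of 11 mouse cell lines, in the Cy3 channel, with no dye swap. The lungs of 7 exposed and 6 control mice and the livers of 7 exposed and 8 control mice were measured. By the numbers in the sample titles, 12 mice gave both tissues. Values are log2 ratios of mouse over reference, so 1 unit is a 2-fold difference in ratio, and a value of 0 equals the reference. A probe called different had a limma p-value, adjusted by Benjamini-Hochberg over all probes, under 0.05. Whole-tissue RNA cannot tell fewer cells of a type from less RNA per cell.

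Triglycerides travel in the blood inside lipoproteins. Lipoprotein lipase, held on the capillary wall, splits them and lets fatty acids enter muscle, fat and heart, and hepatic lipase does related work on the smaller particles at the liver surface. Angiopoietin-like proteins hold lipoprotein lipase back. ANGPTL4 does so mainly in fasting, whereas ANGPTL8 is made in liver and fat and is raised by feeding. Whether the mice had fed before sacrifice is not given in the sources used here.

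The probes that carry the results are shown 5′ to 3′ because the pair on LOC624219 read different stretches of 1 transcript and gave unequal differences. Coordinates are those of the lung files, on mouse build mm7. The first 38 of 60 bases are given for A_51_P494655.
LOC624219 A_51_P494655, chr9:21719502-21719561, plus strand: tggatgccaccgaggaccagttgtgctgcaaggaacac
LOC624219 A_52_P740427, chr9:21718456-21719280, plus strand: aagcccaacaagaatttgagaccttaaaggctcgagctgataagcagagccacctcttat
Lpl A_52_P257812, chr8:67355909-67355968, plus strand: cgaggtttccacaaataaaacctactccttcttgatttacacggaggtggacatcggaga
Lipc A_51_P263993, chr9:70845219-70848895, minus strand: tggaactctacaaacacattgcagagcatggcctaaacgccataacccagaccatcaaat
The 60 bases of A_52_P740427 were spread over 825 bases of genome and those of the Lipc probe over 3677, so both probes cross at least 1 splice junction and match the spliced transcript. The LOC624219 probes did not overlap, with 221 genomic bases between them. The other Lpl probe, A_51_P259296, lay at chr8:67361126-67361185 on the plus strand, and the Angptl4 probe, A_51_P338443, at chr17:31849774-31849833 on the minus strand. In the RefSeq table LOC624219 lies inside the span of Dock6, whose 2 probes differed between exposed and control livers by 0.02 (SE 0.09) and -0.05 (SE 0.10).

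Of the 4 genes, LOC624219 and Lipc were liver genes, Lpl was the lung gene, and Angptl4 did not differ past the threshold. In control mice LOC624219 on probe A_51_P494655 was higher in liver by 3.14 (SE 0.09), that is 8.83-fold in ratio, with an adjusted p of 1.8e-23 from limma. The normalized log2 Cy5 signal of this probe was 12.33 in control liver and 7.44 in control lung. Its Cy3 reference signal also differed, at 8.49 and 6.75, so the fold in ratio depended on both channels. The other LOC624219 probe and Lipc were not above background in control lung. Their tissue differences are therefore bounds, given in the next paragraph, with adjusted p of 3.4e-19 and 1.6e-28 from limma. Lpl was lower in liver by a log2 difference of -2.47 (SE 0.24, adjusted p = 4.8e-10) and -1.96 (SE 0.16, adjusted p = 1.7e-11) on its 2 probes. Angptl4 was 0.81 (SE 0.37) higher in liver, which did not pass the test (adjusted p = 0.061). With the mouse as a fixed block, over the mice with both tissues, the Angptl4 difference was 0.59 and passed it (adjusted p = 0.034). Tissue differences were the rule on these arrays, since 59.6% of 41149 probes were called in this comparison, 29.7% higher and 30% lower in liver. Lung and liver arrays were separate slide sets read with different versions of the scanner software, so tissue and slide set cannot be told apart.

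Lipc did not rise above background in lung, and LOC624219 was close to that limit there. The Lipc signal was not well above background on any of the 7 exposed and 6 control lung arrays. On the normalized Cy5 signal alone, Lipc was at least 22.2-fold higher in control liver than in control lung, taking for each lung array the higher of its lowest detected signal and the probe's own signal. LOC624219 probe A_52_P740427 was not well above background on any control lung array and was so on 4 of 7 exposed ones, and by the same reckoning it was at least 11.4-fold higher in control liver. Probe A_51_P494655, the brighter one, was well above background on every array of both tissues.

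**Figure D1:**
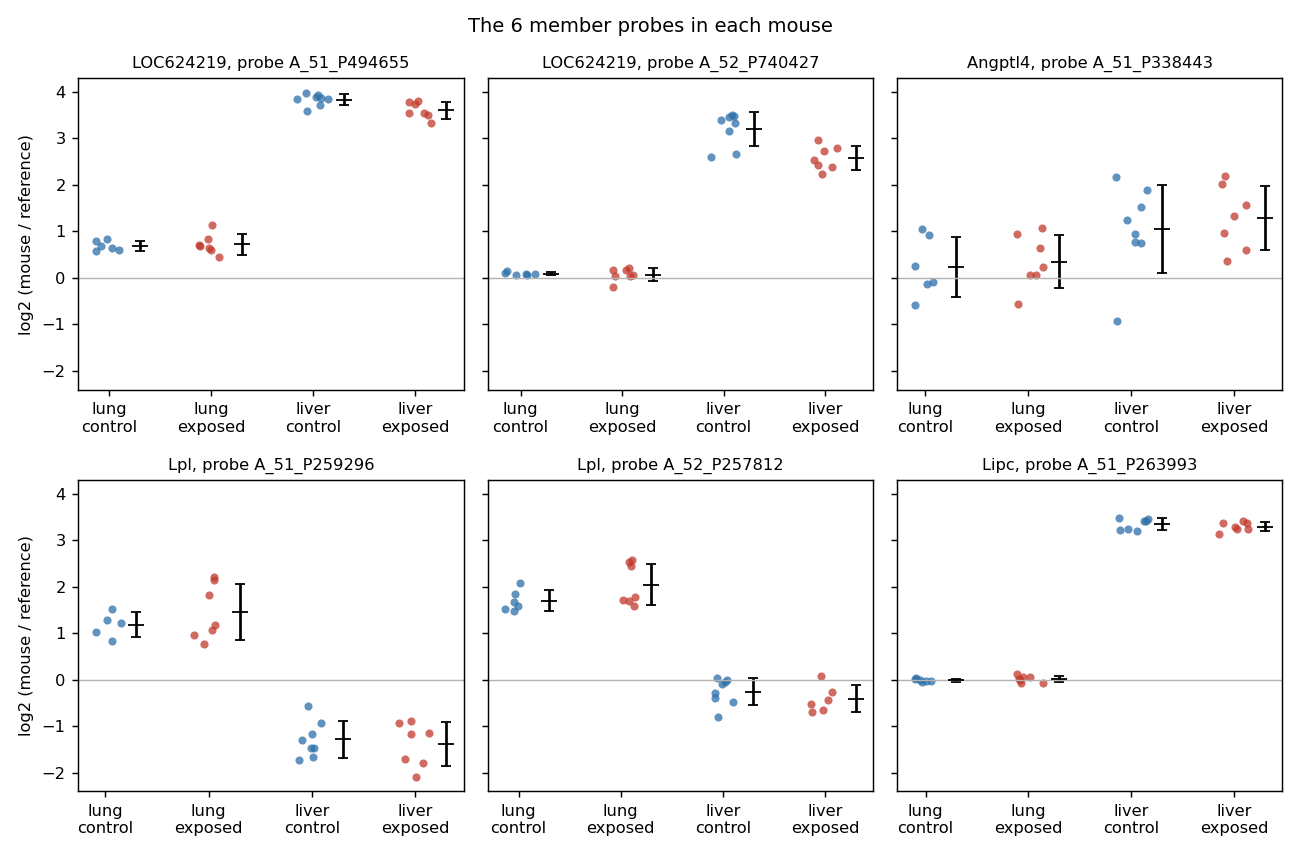
Log2 ratio of mouse over reference for each of the 6 probes, 1 point a mouse, in lung and liver of control (blue) and exposed (red) mice; black marks give the mean and SD. LOC624219 and Lipc stand high in liver, Lpl stands high in lung, and Angptl4 spreads widely within each group.

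LOC624219 was lower in the livers of exposed mice on both probes, without passing the test over all probes. On A_52_P740427 the exposed livers read from 2.23 to 2.97 with a median of 2.54, and the control livers from 2.59 to 3.49 with a median of 3.36. The means were 2.58 ± 0.26 (SD, n = 7) and 3.19 ± 0.37 (SD, n = 8), a difference of -0.61 (SE 0.15, 95% interval -0.93 to -0.30), or 1.53-fold. Every exposed liver lay below the control mean, and 4 of 7 lay below every control liver. The limma p-value was 0.00077 before adjustment and 1.00 after it, and an exact two-sided permutation test over the mice gave p = 0.0051. Ordered by p-value, 11 of 41143 probes, or 0.0267%, had a p-value as small or smaller.

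On A_51_P494655 the exposed livers read from 3.32 to 3.80 with a median of 3.55, and the control livers from 3.60 to 3.98 with a median of 3.86. The difference was -0.23 (SE 0.07, 95% interval -0.39 to -0.07), or 1.17-fold, with a limma p-value of 0.0066 before and 1.00 after adjustment and an exact permutation p of 0.0117, and 103 probes (0.25%) had a limma p-value as small or smaller. Again 4 of 7 exposed livers lay below all controls. Across all probes in liver the percentage called was 0, with 1039 of 41143 probes (2.53%) at an unadjusted limma p under 0.05, 1.65% lower and 0.873% higher in exposed mice. LOC624219 had been singled out on these same liver arrays, so its lower value here is not independent evidence.

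The overlap between the groups came from the same control mice on both probes. Control mouse 27 read 3.60 on A_51_P494655 and 2.59 on A_52_P740427, and control mouse 26 read 3.71 and 2.66. The other 6 control livers read 3.84 or more on the first probe and 3.16 or more on the other, above all exposed livers. Exposed mouse 13 was lowest on both probes. Within groups the probes moved together, with a Pearson r of 0.87 over 15 livers after the group means were removed.

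**Figure D2:**
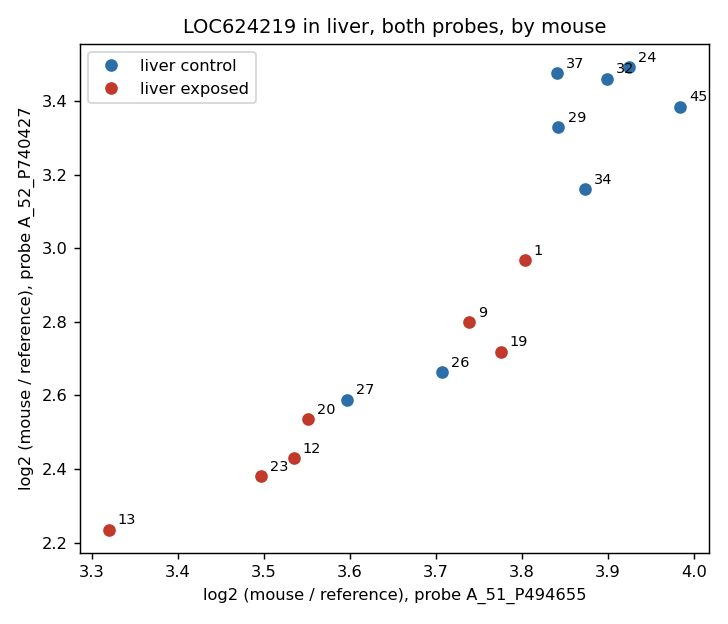
LOC624219 in each liver, log2 ratio on probe A_51_P494655 (x axis) against probe A_52_P740427 (y axis), with mouse numbers, exposed in red and control in blue. The 7 exposed livers lie below 6 of 8 control livers on both axes, and control mice 26 and 27 lie among the exposed.

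The slides did not show the difference equally. Each liver slide held both groups, and the mean of exposed minus control on A_52_P740427 was -0.11 on slide 1, -0.34 on slide 2, -0.83 on slide 3 and -0.97 on slide 4. On A_51_P494655 the same values were -0.01, -0.08, -0.34 and -0.39. All 8 were below 0, and with the slide as a fixed block the differences were -0.61 and -0.22. Mice 26 and 27 lay on slides 1 and 2. Exposed samples were at positions 1 and 2 of a slide and controls at positions 3 and 4, so position and exposure cannot be told apart.

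The size of the difference on A_51_P494655 depended on the reference channel. On the Cy5 channel alone, quantile normalized, the differences were -0.79 (SE 0.23) on A_51_P494655 and -0.74 (SE 0.21) on A_52_P740427, with unadjusted limma p-values of 0.0039 and 0.0025 and adjusted ones of 1.00. The net Cy5 signal of A_51_P494655 had a median of 3182 in exposed livers and 5526 in control livers. The Cy3 signal, which came from the same reference on all arrays, also differed, with medians of 178.5 and 317.5. Over the 15 liver arrays the normalized Cy5 and Cy3 signals of this probe had r = 0.98, those of A_52_P740427 had r = 0.85, and those of Lipc had r = 0.87, whereas Angptl4 had r = 0.12. On lung arrays, where LOC624219 was low, the Cy3 signal of A_51_P494655 was between 41 and 61. A log2 ratio over a reference signal that follows the mouse signal understates a difference, and how far this applied here was not tested.

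The direction turned under 1 of the alternative ways of processing. With the background model fitted on all spots, marked ones included, the differences were 0.20 and 0.12, with 95% intervals of -0.40 to 0.80 and -0.86 to 1.099. Without background correction they were -0.20 and -0.63, and in the authors' processed table -0.14 and -0.61.

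**Figure D3:**
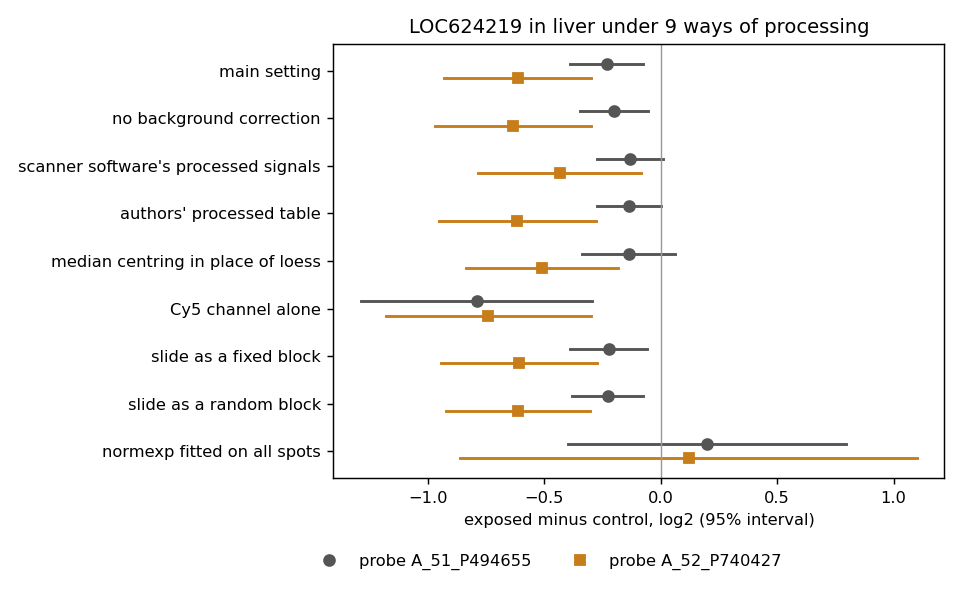
Exposed minus control difference of LOC624219 in liver (x axis, log2, points with 95% intervals) under 9 ways of processing (y axis), for both probes. The points lie below 0 under 8 of them and above 0 where the background model was fitted on all spots, where the intervals are widest.

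In lung LOC624219 did not differ between the groups beyond their spread. On A_51_P494655 exposed lungs read 0.45 to 1.14 with a median of 0.68 and control lungs 0.57 to 0.84 with a median of 0.67. The difference was 0.03 (SE 0.09, 95% interval -0.16 to 0.22, exact permutation p = 0.79). On A_52_P740427, near background in lung, it was -0.01 (95% interval -0.13 to 0.11). In lung 83 of 41155 probes (0.202%) were called, 74 (0.18%) higher and 9 lower, and no probe of the 4 genes was among them. The exposure difference in liver minus that in lung was -0.26 (SE 0.12, 95% interval -0.51 to -0.01, adjusted p = 1.00) on A_51_P494655 and -0.60 (SE 0.18, 95% interval -0.96 to -0.24, adjusted p = 0.51) on A_52_P740427, so a difference between tissues was not called. The lung side of the A_52_P740427 value came from a probe not well above background on most lung arrays, where a difference could hardly be measured. In that test 0.141% of 41125 probes were called.

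Angptl4, the fasting-raised inhibitor of lipoprotein lipase, varied more between mice of a group than between groups. In liver the exposed mice read 0.36 to 2.18 with a median of 1.33 and the control mice -0.92 to 2.16 with a median of 1.098. The difference of 0.24 (SE 0.38, 95% interval -0.57 to 1.05) had an exact permutation p of 0.61. It was -0.04 without control mouse 29, the lowest liver. The slides did not share a direction, with -1.09, 1.29, 0.72 and -0.40 on slides 1 to 4. In lung the exposed mice read -0.56 to 1.08 and the control mice -0.59 to 1.04, a difference of 0.12 (SE 0.29, 95% interval -0.51 to 0.74). The groups overlapped almost completely in both tissues. Signals were bright, with all arrays well above background in both channels.

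Some mice stood at the same end of the Angptl4 range in both tissues. Control mouse 29 was the lowest control in lung (-0.59) and in liver (-0.92), and control mouse 26 was the highest control in lung (1.04) and in liver (2.16). Exposed mouse 20 was the lowest exposed mouse in lung (-0.56) and read 0.60 in liver, while exposed mouse 12 read 1.08 and 1.57. In 11 of 12 mice with both tissues the liver value was the higher one.

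Lpl was not called in either tissue, and in exposed lungs it was high in some mice and within the control range in the others. On A_52_P257812 the exposed lungs read 1.59 to 2.57 with a median of 1.77 and the control lungs 1.48 to 2.08 with a median of 1.63. The difference was 0.34 (SE 0.18, 95% interval -0.03 to 0.72, limma p = 0.071, adjusted p = 0.72), and an exact permutation test gave p = 0.12. Exposed mice 23, 13 and 19 read 2.57, 2.52 and 2.45, above every control, and the other 4 exposed mice read 1.77 or less. By slide the difference was -0.12, 0.15 and 0.69 on slides 1 to 3, and slide 4, which held exposed mice 20 and 23, had no control. On A_51_P259296 the same mice read 2.15, 2.21 and 1.82, and the difference was 0.27 (SE 0.25, adjusted p = 0.85). The spot of control mouse 24 was marked by the scanner software on this probe and left out, which left 5 controls.

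Fat cell markers moved with Lpl in these lungs. All 6 fat cell markers were above 0 in exposed minus control lung, with a median of 0.49 against 0.00 over all probes, and none was called. That median was 0.21 with the background model fitted on all spots, with 1 marker below 0, and 0.87 on the Cy5 channel alone. The mean log2 ratio of 5 of them, those measured on every lung array, was 3.94, 3.87 and 3.69 in exposed mice 23, 13 and 19, between 1.35 and 2.47 in the other exposed mice, and between 0.95 and 3.47 in controls. Control mouse 34, the highest control for Lpl (2.08), was also the highest control for these markers. Among the markers, Cfd, a complement factor secreted by fat, had the largest difference (1.09, SE 0.44, adjusted p = 0.67), but its spot was marked in control mice 24, 26 and 34, which had the highest control means of these markers, so the value rests on 6 exposed and 3 control lungs. Perilipin (Plin), measured in every lung, was at 0.88, and leptin (Lep) the smallest (0.07). All 6 heart muscle markers were also above 0, with a median of 0.35, from 0.23 for Myl7 to 0.64 for Tnnt2. With the background model fitted on all spots the heart marker median was 0.14 with 2 below 0. What part these tissues had in the Lpl values was not tested.

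**Figure D4:**
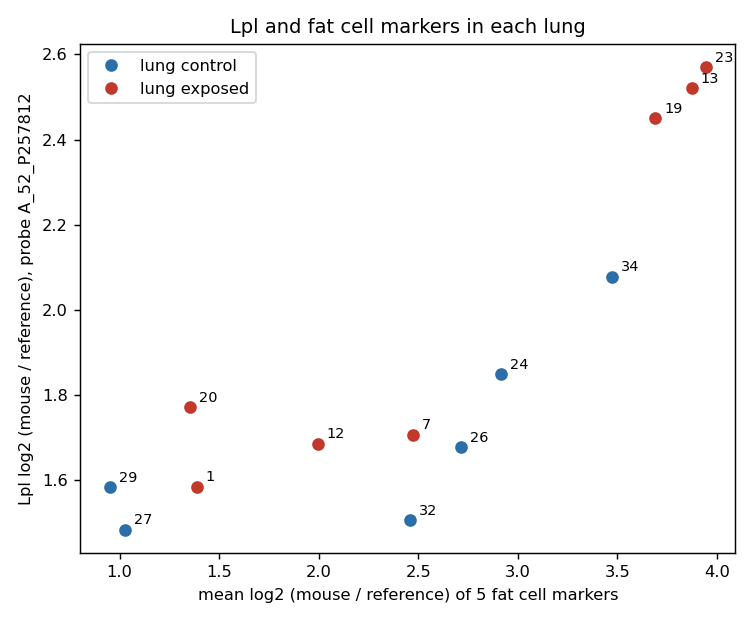
Lpl log2 ratio on probe A_52_P257812 (y axis) against the mean log2 ratio of 5 fat cell markers (x axis) in each lung, with mouse numbers, exposed in red and control in blue. Exposed mice 13, 19 and 23 stand highest on both axes, and control mouse 34 comes next.

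In liver Lpl was low and did not differ between groups. On A_51_P259296 exposed livers read -2.10 to -0.90 with a median of -1.17 and control livers -1.74 to -0.57 with a median of -1.38. The difference was -0.11 (SE 0.20, 95% interval -0.52 to 0.31), and on A_52_P257812, where the spot of exposed mouse 13 was marked and left out, it was -0.15 (SE 0.14, 95% interval -0.45 to 0.14). The signal was well above background on all liver arrays.

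Lipc was the most even of the 4 genes in liver. Exposed livers read 3.12 to 3.41 with a median of 3.29 and control livers 3.18 to 3.48 with a median of 3.40, the marked spot of control mouse 29 being left out. The difference was -0.05 (SE 0.06, 95% interval -0.18 to 0.08, exact permutation p = 0.41). The interval leaves out a change as large as that of LOC624219 on A_52_P740427 in this setting. On the Cy5 channel alone it was 0.14, and with the background model fitted on all spots 0.70.

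Other angiopoietin-like genes showed no called difference. Of 7 family members on the array, LOC624219 and Angptl4 included, 0 were called in either tissue, against a background of 0 called in liver and 0.202% in lung. In liver 5 were lower and 2 higher with a median of -0.01. Angptl6 was -0.04 and -0.01, Angptl7 -0.01 and -0.12, Angptl2 -0.01 and 0.03, and Angptl1 0.05 and 0.04. Angptl6 was 3.16 higher in control liver than in control lung, a tissue difference of the same direction as that of LOC624219.

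Of 14 lipases, Lpl and Lipc included, none was called in either tissue, with medians of -0.02 in liver and 0.03 in lung. The ends of the list in liver were the fat lipase Lipe (0.09) and the lysosomal lipase Lipa (-0.21), and in lung Pnpla3 (0.32) and Cel (-0.07). The gastric lipase Lipf (0.23 in lung) was the only one there with an unadjusted p under 0.05, as 7.12% of all probes had. Of 10 partners of lipoprotein lipase none was called. In liver they ran from the protease Furin (0.23) to Apoc1 (-0.56), though the Apoc1 spot was unmarked on only 1 exposed and 1 control array. The lipase inhibitor Apoc3 was at -0.22 (SE 0.07) and the activator Apoa5 at -0.17 (SE 0.07), both with an unadjusted p under 0.05. In lung they ran from Apoa5 (0.57) to the capillary anchor Gpihbp1 (-0.18). Apoa5 read 1.61, 1.07 and 1.31 in the lungs of exposed mice 1, 13 and 19. It read -0.12 to 0.23 in the other exposed lungs and -0.17 to 0.22 in control lungs. Among lipoprotein uptake receptors the fatty acid carrier Cd36 was at -0.12 in lung and the syndecan Sdc1 at -0.21 in liver, and neither was called.

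Genes known to be raised by feeding read lower in exposed liver, as LOC624219 did. All 10 lay below 0, with a median of -0.13 against 0.00 over all probes, of which 47.2% were above 0. None was called and 3 had an unadjusted p under 0.05. They ran from Srebf1 (-0.01), a regulator of lipid synthesis, to Fasn, the fatty acid synthase (-0.36, over 5 exposed and 5 control livers). With the background model fitted on all spots the median was 0.08 and 2 of 10 were lower. In lung 9 of the 10 were above 0, up to 0.60 for Fasn (4 exposed and 5 control lungs) and down to -0.04 for Acly, and none was called. The mean of the 6 measured in every lung was 2.06, 2.24 and 1.46 in exposed mice 23, 13 and 19. It was 0.29 to 0.85 in the other exposed mice and 0.23 to 1.55 in controls, with control mouse 34 above exposed mouse 19. Mice 23, 13 and 19 also had the highest fat cell markers. Of 12 genes raised by fasting 8 were lower in liver, with a median of -0.05, from 0.33 for Acot1 to -0.37 for Igfbp1. That median was 0.10 on the Cy5 channel alone with 3 lower, and 0.43 with 0 lower where the background model was fitted on all spots. In lung they ran from 1.14 for Pck1 to -0.16 for Ppargc1a, with a median of 0.09.

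Hepatocyte markers read lower in the exposed livers as well. Of 6 markers 5 could be fitted, since marked spots left Fgb on too few arrays, and all 5 were below 0, with a median of -0.24, from -0.10 for Ttr to -0.36 for albumin (listed as Alb1). Albumin, Apoa1 (-0.24) and Serpina1b (-0.26) had unadjusted limma p-values of 0.0015, 0.00077 and 0.0086, and none was called. They were measured on 10, 15 and 10 of the 15 livers, and Ahsg on 3. On the Cy5 channel alone albumin read 18.33 to 18.72 in exposed and 18.33 to 18.63 in control livers. Those are among the top values that quantile normalization gives each liver array, so that channel could hardly show a difference in albumin. The mean of the 2 markers measured on every liver array was 5.32 to 5.52 in exposed and 5.51 to 5.81 in control livers. On the Cy5 channel alone the median was -0.11 with 4 lower, and with the background model fitted on all spots it was -0.11 with 3 lower. What part of the LOC624219 value goes with this shift was not tested. In lung all 6 hepatocyte markers were higher in exposed mice, with a median of 0.71 and the largest value for Fgb (1.14), and none was called. With the background model fitted on all spots that median was 0.36 with 1 marker below 0. The mean of the 5 hepatocyte markers measured on every lung array was 2.99, 2.18 and 2.13 in exposed mice 1, 13 and 19. It was 0.81 to 1.45 in the other exposed lungs and 0.50 to 1.51 in control lungs.

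Markers of other cells bear on the same arrays. In liver the macrophage markers were all 6 below 0 (median -0.17, from -0.02 for Mrc1 to -0.30 for Emr1), but with the background model fitted on all spots the median was 0.20 with 3 below 0. Of 5 neutrophil markers 4 were below 0 (median -0.17, from 0.00 for Csf3r to -0.96 for S100a9). Control mouse 32 read 6.48 for S100a9 against 2.12 to 3.07 in the other controls, and without it the difference was -0.42. Fat cell markers in liver ran from 0.12 (Cidec) to -0.26 (Cfd), the latter 0.11 without control mouse 24, heart markers from 0.05 (Actc1) to -0.11 (Myl7) and lung epithelium markers from 0.06 (Scgb1a1) to -0.16 (Sftpd). None was called in liver. In lung the macrophage scavenger receptors Marco (0.57, adjusted p = 0.0092) and Msr1 (0.52, adjusted p = 0.020) rose, with Mrc1 at -0.07. Neutrophil markers in lung ran from 0.24 (Mmp8) to -0.88 (S100a8), and the surfactant gene Sftpc was at -0.20, with Ager, an alveolar type I marker, at -0.06. On the Cy5 channel alone Sftpc read the same 18.64 on every lung array where it was measured. That is the top value that quantile normalization gives each lung array, so that channel could not show a difference. Lpl is also made by macrophages. The macrophage marker mean was 1.09 to 1.30 in exposed and 0.80 to 1.01 in control lungs. The lungs of exposed mice 23, 13 and 19 read 1.17, 1.30 and 1.13. The other exposed lungs read 1.09 to 1.23. What part macrophages had in the Lpl values was not tested.

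**Figure D5:**
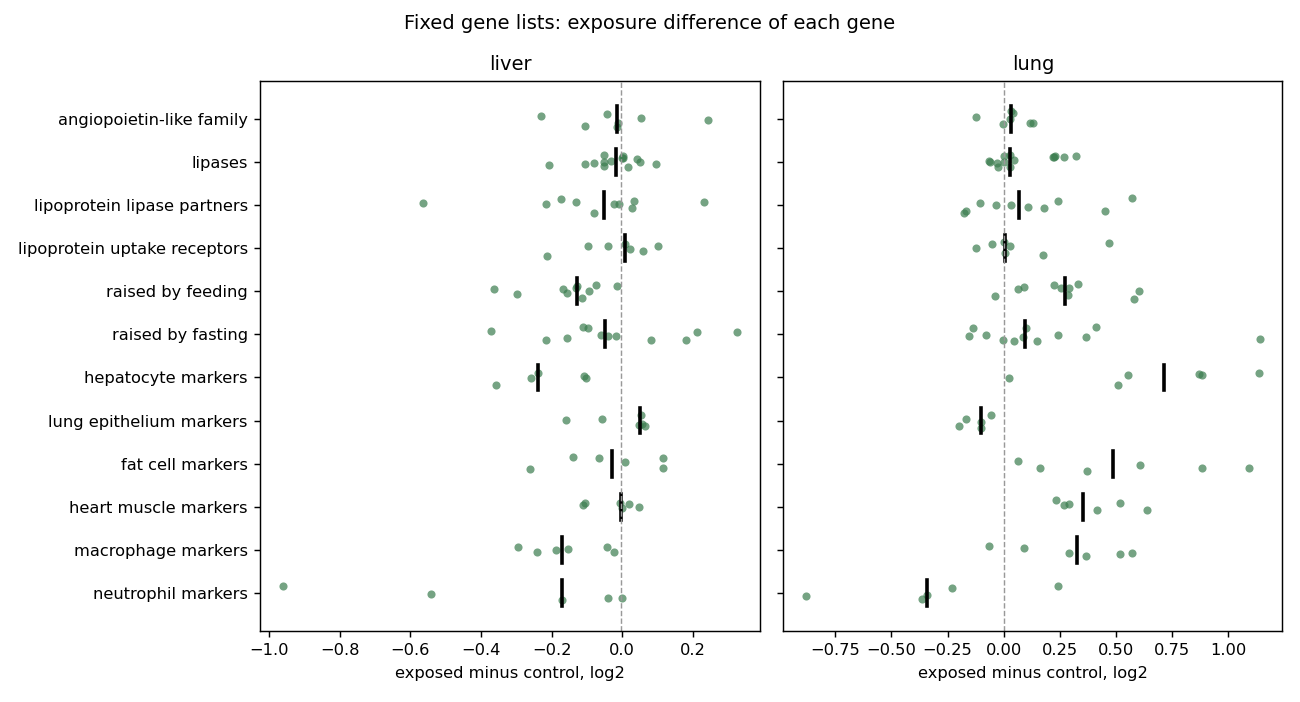
Exposed minus control difference (x axis, log2) of each gene in the 12 gene lists (y axis) in liver (left) and lung (right), with the list median as a black bar and the median of all probes as a dashed line. In liver the feeding-raised genes, hepatocyte markers and macrophage markers lie below 0, and in lung the fat cell, heart and hepatocyte markers lie above it.

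Across livers LOC624219 was set against genes chosen for their roles, with p-values adjusted over the 10 relations computed. Taking probe A_51_P494655, Pck1, the gluconeogenic enzyme, gave a Pearson r of 0.64 and a Spearman rho of 0.63 over 14 livers. The permutation p-values were 0.0108 and 0.0191, or 0.054 and 0.096 after Benjamini-Hochberg adjustment. Without the livers of exposed mice 13 and 23, the farthest from the median, r was 0.77. Within the exposed livers r was 0.46 (exact permutation p = 0.28), and within the control livers it was 0.84 (exact permutation p = 0.0024, adjusted p = 0.024). Spearman rho within the control livers was 0.89 and did not pass the adjustment (exact permutation p = 0.0123, adjusted p = 0.12). On the other probe r was 0.55 over all livers with an adjusted p of 0.22. Within the control livers it was 0.65 there (exact permutation p = 0.054, adjusted p = 0.39). On the Cy5 channel alone r with A_51_P494655 was -0.13 over all livers.

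These other relations did not pass the adjustment over all livers. Angptl4 gave r = -0.18, Lpl -0.11, Lipc 0.38, Srebf1 0.17, Fasn 0.31 over 10 livers (-0.38 without the 2 farthest), Pdk4 -0.17 and Cpt1a 0.11, with adjusted p-values of 0.59 to 0.71. So LOC624219 showed no relation past the threshold with the lipases or with Angptl4. Over all 15 livers, after removal of group means, the genes most like LOC624219 on this probe were Upk3b (r = 0.84), Prss12 (0.83), Rspo1 (0.82), Armc4 (0.79) and D8Ertd82e (0.79), and the least like were Tspyl4 (-0.85), Papola (-0.84), Snx17 (-0.83), Trim6 (-0.82) and ORF19 (-0.82). Armc4, D8Ertd82e and Tspyl4 were not well above background on any liver array. The same ranking on the other probe shared 0 of its 5 highest genes and 1 of its 5 lowest, Papola, with this one. These are the ends of a ranking and are given without a test.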

How the data were processed

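Whole-genome mRNA arrays of lung and liver were analysed, 28 in all, 1 mouse each. Spot intensity values were deposited by the authors as Feature Extraction output (version 9.5.3.1 for lung, 10.1.1.1 for liver), not normalized; the authors also deposited a log2 ratio table (LOWESS per their methods), used as an alternative. On each array 45018 spots were read and the background was modelled with normexp (offset 50) on spots not marked as outliers by the scanner software, because marked spots pulled the model on several arrays. Loess followed, control and marked spots were dropped, and spots of a probe were averaged, giving 41174 probes. A total of 3 values of the 6 probes were missing for this reason. Between 55.1% and 70.5% of spots were well above background in Cy5. The authors tested with MAANOVA; limma 3.58.1 in R 4.3.3 was used here with Benjamini-Hochberg adjustment at 0.05. The fits recovered known changes on simulated data with independent noise and no slide or position effects. How often a change as small as that of LOC624219 was recovered is not reported here. Tissue comparisons used all 4 groups. Mouse numbers in the sample titles were taken to pair lung and liver of 1 animal (12 mice). Same-mouse deviations correlated at -0.08 to 0.21 (median 0.06), and 4 of 12 mice correlated best with themselves. Numbers 12, 20 and 23 are titled exposed on these arrays but control on the miRNA arrays, so the pairing is an assumption.

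The genes, gene lists and processing were chosen with earlier results of these data known. Genes named beyond the 4 were family members, relation genes, genes called in a list, the highest and lowest gene of each list in each tissue, and the 5 most and 5 least alike; Dock6, Apoc3, Apoa1, Serpina1b, Ahsg, Lipf and Plin were named, and Cfd and S100a9 in liver computed without 1 control mouse, after their values were seen. A list gene is given by its brightest probe. Alternatives were other background models, signals, normalizations, the Cy5 channel alone, a detection filter, slide or mouse as a block, and each array left out. The number of arrays limits the precision. Some genes of these lists and relations are not reported here. MiRNA arrays were not used here.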

Additional observations from a re-analysis of the deposited data

Results flagged for a closer look

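The 24 sets of values, 6 probes in 4 groups, were searched for a mouse far from the rest of its group by Dixon's criterion, which chance meets in about 1 in 20 sets. In 2 sets a mouse stood apart. Angptl4 in the liver of control mouse 29 was -0.92, against 0.75 for the next lowest control. LOC624219 on A_52_P740427 in the lung of exposed mouse 1 was -0.20, against 0.04 for the next. This was a low ratio and not a low lung signal, since the net Cy5 signal was 34, the highest of the lungs (9.5 to 24.5 in the others), while the net Cy3 reference signal was 54 against 11 to 15 on the other lung arrays.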

How the results depend on the processing

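No probe was called in liver under any alternative, so LOC624219 stayed uncalled there. Its liver difference kept its direction except with the background model fitted on all spots (0.20 on A_51_P494655, 0.12 on A_52_P740427). Leaving out each liver in turn gave -0.26 to -0.18 and -0.70 to -0.56. The cause was not tested for any change named here. With all spots in the background model Lipc in liver was 0.70, LOC624219 on A_51_P494655 in lung was -0.13, and the liver minus lung exposure difference was 0.33 and 0.13 for LOC624219 and 0.69 for Lipc. With median centring Lpl on A_51_P259296 in liver was 0.032, Lipc 0.067 in liver and 0.048 in the difference between tissues. On the Cy5 channel alone Lipc was 0.14 in liver and 0.12 in that difference, and LOC624219 in lung was -0.028 and 0.11. With the scanner software's processed signals LOC624219 on A_52_P740427 in lung was 0.21, and with the slide as a fixed block LOC624219 on A_51_P494655 in lung was -0.014. The other LOC624219 probe, an alternative chosen after seeing the data, gave r = 0.078 with Lpl.

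Leaving out 1 mouse turned the sign of small differences. Angptl4 in liver ranged from -0.039 (without control mouse 29) to 0.40, and in lung from -0.048 (without control mouse 29) to 0.28. Lpl on A_51_P259296 in liver ranged from -0.19 to 0.012 (without exposed mouse 19). LOC624219 in lung ranged from -0.041 (without exposed mouse 13) to 0.075 on A_51_P494655 and from -0.036 to 0.032 (without exposed mouse 1) on A_52_P740427.

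The number of probes called in lung was 14 with all spots, 4 with median centring and 133 with the slide as a random block, and 64 to 81 with 1 array left out. In the difference between tissues it was 6 with all spots, 31 with processed signals and 12 with median centring. Angptl4 between tissues passed the threshold with median centring (1.30, adjusted p = 0.010), among probes well above background (0.81, adjusted p = 0.046) and with the mouse as a fixed replicate block (0.59). Pairing by mouse changed no other call of the 6 probes, with a block correlation of 0.04 as a random effect. Low signal over background limits Lipc and LOC624219 on A_52_P740427 in lung to bounds.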

Other observations

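After the values had been seen, lung and liver of the same mouse were compared for the 6 probes and for 6 other genes of lipid and glucose handling, 12 relations in all. Angptl4 had the largest correlation, with Pearson r = 0.70 and Spearman rho = 0.75 over 12 mice (permutation p = 0.0086 and 0.0068, adjusted 0.103 and 0.081), so it did not pass the adjustment. Over 25725 probes measured in both tissues of these mice the median r was 0.05, and 1.36% reached 0.70. Without mice 12 and 29, whose lungs were farthest from the median, r was 0.58. Within the 6 control mice r was 0.89 and within the 6 exposed mice 0.44, and on the Cy5 channel alone it was 0.65 over all mice. Lpl gave r = -0.40 and -0.52 on its 2 probes, LOC624219 -0.38 and -0.14, Lipc 0.07 and Pdk4 -0.02, with adjusted p-values of 0.42 or more for r.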
